A study of Mus musculus with 18 samples.

Results

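Gpnmb, Atp6v0d2 and the 4 genes of the MiT/TFE family of transcription factors, Mitf, Tfec, Tfeb and Tfe3, were followed in mouse microglia of the cortex and the corpus callosum. They are 6 of the 22180 genes measured on these arrays. Gpnmb and Atp6v0d2 were selected on measured values, their higher levels in corpus callosum at postnatal days 3 and 7, and on being known targets of these factors. Their levels at those ages are therefore given as a description with no test. The 4 factors were listed by family, whatever their values, and were tested.

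The study compared microglia of both regions at postnatal day 3 (P3), postnatal day 7 (P7) and in the adult, with 3 arrays in each of the 6 groups and 18 arrays in all. All mice were untreated C57Bl/6 mice kept under specific pathogen-free (SPF) conditions, and the labels name no transgene or deletion. Cells from a Percoll gradient were sorted as CD45 positive, CD11b positive and Gr1 negative, and their total RNA was amplified, labelled with biotin and hybridised to Affymetrix gene arrays. The labels do not give the number or sex of the animals behind an array, pooling, or the age of the adults in days. The p-values then measure only the spread between these samples, which may be technical.

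The MiT/TFE factors are basic helix-loop-helix leucine zipper proteins that bind DNA as homodimers or as heterodimers with each other. They switch on genes of lysosomes and autophagy, and when nutrients are plentiful the kinase complex mTORC1 at the lysosome holds Tfeb, Tfe3 and some forms of Mitf in the cytoplasm. Mitf is best known as the master regulator of melanocytes, and Mitf, Tfe3 and Tfec are also expressed in osteoclasts and macrophages. Gpnmb encodes a transmembrane glycoprotein of late endosomes and lysosomes that is induced in phagocytes loaded with lipid. Atp6v0d2 encodes a tissue-restricted d subunit of the membrane part of the vacuolar proton pump (V-ATPase), which acidifies lysosomes, and it is known for the fusion of osteoclasts. Microglia of the early postnatal corpus callosum are known to be amoeboid and phagocytic at the time when white matter forms.

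The promoter windows of 3 of these genes are shown because the factors are read through the DNA they bind. Of the 6 genes, 5 were found in the RefSeq promoter table (GRCm38.p6), in windows of 250 bases before and 50 bases after an annotated start. Gpnmb is shown as the gene with the largest early regional difference among those 5, Mitf as the factor with a called regional difference, and Tfec as the factor with the largest difference between P7 and adult. Mitf has 3 windows in the table, and the third is printed, the only one of the 3 that holds a searched motif. Which of these starts the microglia used was not measured. Capitals mark the motif found in a window, and all are written 5′ to 3′ on the strand of the gene.
Gpnmb, chr6:49036268-49036567, plus strand: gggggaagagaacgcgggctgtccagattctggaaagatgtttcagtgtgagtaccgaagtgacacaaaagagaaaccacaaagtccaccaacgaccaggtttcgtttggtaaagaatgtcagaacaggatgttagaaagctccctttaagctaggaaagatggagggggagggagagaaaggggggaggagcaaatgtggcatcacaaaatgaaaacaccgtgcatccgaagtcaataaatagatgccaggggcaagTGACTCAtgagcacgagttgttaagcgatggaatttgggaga
Mitf, the third start, chr6:97991533-97991832, plus strand: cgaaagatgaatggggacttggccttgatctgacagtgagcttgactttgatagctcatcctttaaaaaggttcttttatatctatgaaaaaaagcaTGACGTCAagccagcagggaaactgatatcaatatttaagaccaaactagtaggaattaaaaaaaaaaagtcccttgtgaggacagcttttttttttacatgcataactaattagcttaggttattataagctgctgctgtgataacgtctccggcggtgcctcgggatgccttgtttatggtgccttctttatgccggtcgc
Tfec, chr6:16898392-16898691, minus strand: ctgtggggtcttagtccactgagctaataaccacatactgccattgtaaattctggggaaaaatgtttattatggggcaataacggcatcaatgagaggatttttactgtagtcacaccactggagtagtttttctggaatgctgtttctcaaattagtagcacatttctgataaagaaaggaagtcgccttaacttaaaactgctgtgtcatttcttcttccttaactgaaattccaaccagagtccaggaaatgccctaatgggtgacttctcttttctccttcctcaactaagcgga

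The E-box CACGTG and the longer TCACGTG that contains it, as well as the M-box forms CATGTG and TCATGTG, were searched on both strands, and none of these letters was found in any window of the 5 genes. Over all 32851 promoter windows of that length in the table, CACGTG was held by 7.15%, TCACGTG by 3.77%, CATGTG by 14.2% and TCATGTG by 3.77%. The other motifs were chosen after the sequences were seen. The Gpnmb window holds TGACTCA, the letters bound by AP-1, on the plus strand with its first base at position 9 after the start, as do 5.20% of all windows on either strand. The printed Mitf window holds TGACGTCA, the cyclic AMP response element, as do 1.79% of all windows. These matches describe letters only, and the arrays did not measure binding.

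Gpnmb was at high levels in early corpus callosum and near the middle of the array in both adult regions. All levels are the deposited log2 values, in which a difference of 1 stands for a doubling, and the median over all probe sets of their mean levels was 5.65. At P3 the log2 levels of Gpnmb were 7.08, 7.42 and 6.86 on the 3 cortex arrays and 9.86, 9.46 and 9.62 on the 3 corpus callosum arrays. At P7 they were 7.60, 5.91 and 6.94 in cortex and 10.87, 9.74 and 9.54 in corpus callosum. The regions did not overlap at either age, and the first P7 corpus callosum array was the highest of all 18.

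In the adult, Gpnmb had log2 levels of 5.42, 5.96 and 5.66 in cortex and 5.63, 5.60 and 5.66 in corpus callosum, so the regions overlapped. From the group means, corpus callosum was above cortex by 2.53 ± 0.34 log2 units at P3 (a 5.77-fold difference; ± after a difference is the standard error, n = 3 arrays a group) and by 3.24 ± 0.34 at P7 (9.42-fold). The adult regional difference is between means of arrays that did not select the gene, with an error from the spread of all 18 arrays, and it was -0.05 ± 0.34 (95% interval -0.76 to 0.66, limma adjusted p = 0.98). Only 0.00451% of all genes were called in that comparison, where called means an adjusted p under 0.05. Adult minus P7, the difference was -1.13 ± 0.34 log2 units in cortex and -4.42 ± 0.34 in corpus callosum (21.4-fold lower). The value in cortex was -0.74 without the first P7 array and -1.59 without the second. In order of group means, Gpnmb was highest in P7 corpus callosum, then in P3 corpus callosum, P3 cortex, P7 cortex, adult cortex and adult corpus callosum, and the only neighbours in that order without overlap were P3 corpus callosum and P3 cortex.

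**Figure D1:**
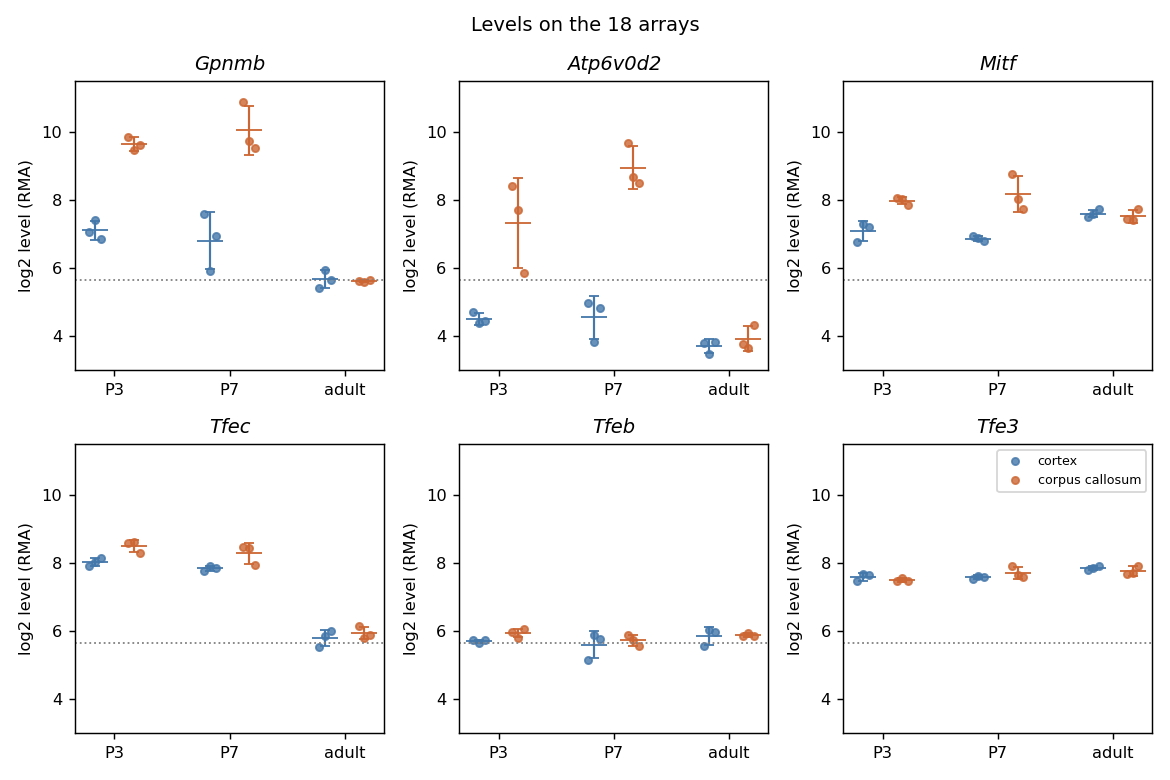
Log2 levels (vertical axis) of the 6 genes by age (horizontal axis) in cortex (blue) and corpus callosum (orange). Points are arrays, bars the mean ± SD of 3 arrays, and the dotted line the median of the probe set means. Gpnmb and Atp6v0d2 stand apart between the regions at P3 and P7 and lie together in the adult, Tfec falls from P7 to adult in both regions, and Tfeb and Tfe3 were called in no comparison.

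Atp6v0d2 was also higher in early corpus callosum than in cortex, and low in the adult. At P3 its log2 levels were 4.71, 4.38 and 4.46 in cortex and 8.40, 7.72 and 5.87 in corpus callosum. At P7 they were 4.98, 3.84 and 4.83 in cortex and 9.68, 8.69 and 8.49 in corpus callosum. In the adult they were 3.80, 3.48 and 3.84 in cortex and 3.78, 3.65 and 4.34 in corpus callosum. The regions did not overlap at P3 and P7 and overlapped in the adult, and the third P3 corpus callosum array lay well below the other two of its group.

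Corpus callosum was above cortex in Atp6v0d2 by 2.81 ± 0.46 log2 units at P3 (7.03-fold) and by 4.40 ± 0.46 at P7 (21.2-fold). Without the third P3 corpus callosum array the P3 difference was 3.54. The adult regional difference was 0.22 ± 0.46 (95% interval -0.75 to 1.18, limma adjusted p = 0.931). Adult minus P7, it was -0.85 ± 0.46 log2 units in cortex and -5.03 ± 0.46 in corpus callosum (32.7-fold lower). On the cortex and adult arrays Atp6v0d2 lay between the 7.63rd and the 28.96th percentile of the genes on its array, a range where signal and background were not told apart, so the size of these folds is uncertain. With 1 array left out, adult minus P7 in cortex ran from -0.63 to -1.20. The mean over arrays was highest in P7 corpus callosum, whose 3 arrays all lay above those of P3 corpus callosum, the next in order. P7 cortex and P3 cortex came next and overlapped, and the adult groups were last and overlapped.

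The P3 arrays carry another label prefix than the P7 and adult arrays, so for any difference between P3 and P7 age and array set cannot be told apart. The change of Gpnmb from P3 to P7 was -0.31 ± 0.34 log2 units in cortex and 0.40 ± 0.34 in corpus callosum. Leaving out 1 array turned both signs, to 0.15 in cortex without the second P7 array and to -0.01 in corpus callosum without the first P7 array. For Atp6v0d2 it was 0.04 ± 0.46 in cortex and 1.63 ± 0.46 in corpus callosum, and with 1 array left out it ran from -0.18 to 0.39 in cortex and from 0.90, without the third P3 array, to 2.16 in corpus callosum. The regional difference at P7 exceeded that at P3 by 0.71 ± 0.48 for Gpnmb and by 1.59 ± 0.65 for Atp6v0d2. Without the first P7 corpus callosum array these were 0.29 and 1.23, and without the third P3 corpus callosum array they were 0.69 and 0.86. Without the second P7 cortex array the Gpnmb value was 0.25, and without the first it was 1.10. In sorted bulk RNA, a smaller share of cells that express a gene and less of its RNA in each cell cannot be told apart.

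Mitf was the factor with a called regional difference. At P3 its log2 levels were 6.76, 7.30 and 7.21 in cortex and 8.05, 8.03 and 7.87 in corpus callosum. At P7 they were 6.93, 6.88 and 6.80 in cortex and 8.77, 8.04 and 7.72 in corpus callosum. In the adult they were 7.51, 7.58 and 7.73 in cortex and 7.43, 7.41 and 7.74 in corpus callosum. The regions were apart at both early ages and overlapped in the adult, and the first P7 corpus callosum array was again the highest.

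At P7 Mitf was higher in corpus callosum by 1.31 ± 0.20 log2 units (2.48-fold, limma adjusted p = 0.00248). It was the 1 of the 4 factors called higher there, against 0.446% of all genes called higher and 0.00451% called lower. The call held without any 1 of the 6 P7 arrays (adjusted p between 0.000542 and 0.0208), with a difference of 1.01 without the first corpus callosum array, but not in a fit of the 6 P7 arrays alone (adjusted p = 0.0884). At P3 the difference was 0.89 ± 0.20 (1.86-fold, adjusted p = 0.055), and 0 of the 4 factors were called, against 0.352% of all genes called higher and 0.153% called lower. Limma's unadjusted p was under 0.05 for 2 of the 4 at P3 and again at P7, Mitf and Tfec each time. Over all genes the shares were 12.8% and 6.88%. In the adult the Mitf difference was -0.08 ± 0.20 (95% interval -0.50 to 0.34, adjusted p = 0.941). There limma called 0 of the 4 factors (0 with an unadjusted p under 0.05, beside 8.51% of all genes).

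From P7 to adult, Mitf moved in opposite directions in the regions. It rose in cortex by 0.74 ± 0.20 log2 units (limma adjusted p = 0.0219), one of the 4 factors, against 4.05% of all genes called higher. It fell in corpus callosum by 0.66 ± 0.20 (adjusted p = 0.0292), where 10.7% of all genes were called lower and 6.56% higher. The test of the difference between these changes, which is the adult regional difference minus that at P7, gave -1.39 ± 0.28 (unadjusted p = 0.000113, adjusted p = 0.0535), which is not called, and 0.198% of all genes were called lower in it. The fall in corpus callosum rested on the first P7 array, without which it was -0.36 (adjusted p = 0.183), and it was also lost without the first or the second adult array (adjusted p = 0.09 and 0.0985). The rise in cortex was lost without the second or the third P7 array (adjusted p = 0.0639 and 0.0843) or the second or the third adult array (0.0559 and 0.0881). In order of group means, Mitf was highest in both early corpus callosum groups, then in both adult groups, and lowest in both early cortex groups. The groups within each of these pairs overlapped. All early cortex arrays lay below all adult arrays. The third P7 corpus callosum array, at 7.72, lay just below the third adult arrays of cortex (7.73) and corpus callosum (7.74). The other early corpus callosum arrays lay above all adult arrays.

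Tfec, a family member restricted largely to macrophages, showed its largest differences between ages. At P3 its log2 levels were 7.90, 8.03 and 8.15 in cortex and 8.58, 8.62 and 8.30 in corpus callosum. At P7 they were 7.76, 7.90 and 7.85 in cortex and 8.47, 8.45 and 7.93 in corpus callosum. In the adult they were 5.54, 5.84 and 5.99 in cortex and 6.13, 5.79 and 5.88 in corpus callosum. All 12 early arrays lay above all 6 adult arrays.

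Tfec fell from P7 to adult by 2.05 ± 0.16 log2 units in cortex (4.14-fold, limma adjusted p = 3.6e-08), and it fell by 2.35 ± 0.16 in corpus callosum (5.10-fold, adjusted p = 8.93e-09). It was the 1 factor called lower in cortex, against 6.15% of all genes, and with Mitf 1 of 2 called lower in corpus callosum. Both falls were called in every alternative run, with adjusted p values up to 2.73e-05 in cortex and 6.85e-05 in corpus callosum. The fall did not differ detectably between the regions (-0.30 ± 0.22, 95% interval -0.77 to 0.17, adjusted p = 0.846). The corpus callosum arrays were all above the cortex arrays at P3 and at P7, but the differences of 0.47 ± 0.16 and 0.45 ± 0.16 were not called (adjusted p = 0.194 and 0.43). In the adult the difference was 0.14 ± 0.16 (95% interval -0.19 to 0.48, adjusted p = 0.85).

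Tfeb and Tfe3, the members best known as sensors of lysosomal stress and nutrients, were called in no comparison. Tfeb had log2 levels between 5.14 and 6.05 over the 18 arrays, near the median of the probe sets. Tfe3 lay between 7.46 and 7.91. Their regional differences were 0.24 ± 0.16 and -0.10 ± 0.11 at P3, 0.12 ± 0.16 and 0.13 ± 0.11 at P7, and 0.03 ± 0.16 and -0.09 ± 0.11 in the adult (limma adjusted p from 0.579 to 0.991). The largest difference of either gene between P7 and adult was 0.28 ± 0.11 for Tfe3 in cortex (95% interval 0.04 to 0.52, adjusted p = 0.157). At P7 the 95% interval of the regional difference was -0.22 to 0.47 for Tfeb and -0.11 to 0.37 for Tfe3, which bounds what 3 arrays a group could have missed. For both genes each pair of neighbours in the order of the groups overlapped.

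Counted over the 6 genes, all 3 corpus callosum arrays lay above all 3 cortex arrays for 5 genes at P3, for 4 at P7 and for none in the adult. Over all genes the share with such a separation was 9.17% at P3, 8.97% at P7 and 6.73% in the adult. Gpnmb and Atp6v0d2, which were selected on this, are 2 of the 5 and of the 4. The others were Mitf and Tfec at both ages and Tfeb at P3. No factor was called between P3 and P7, where 0.884% of all genes were called in cortex and 0.739% in corpus callosum, or in the change of the regional difference from P3 to P7, where limma called 0% of all genes and gave 1260 of them an unadjusted p under 0.05, none of them a factor.

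**Figure D2:**
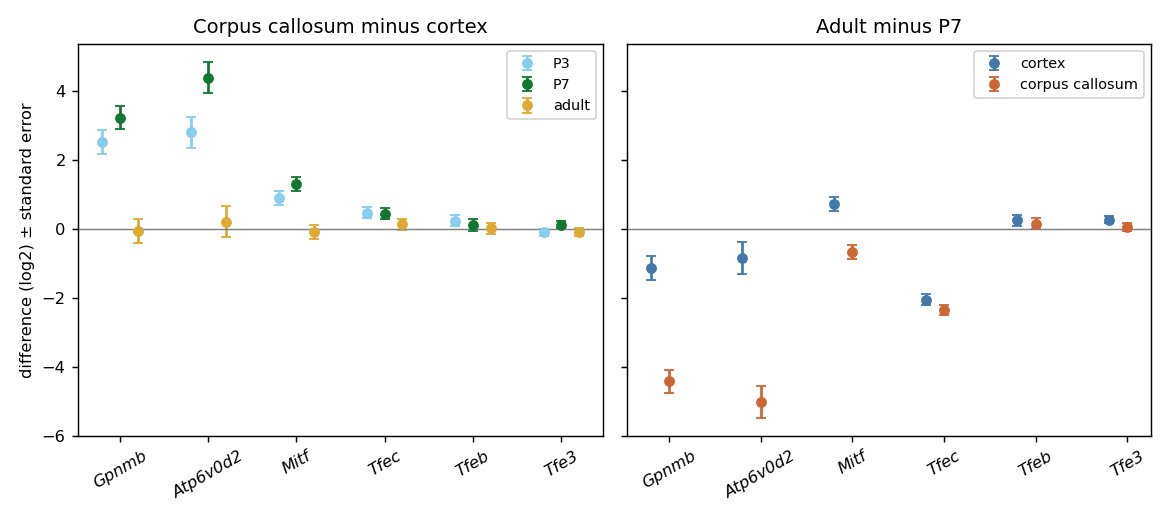
Differences in log2 level (vertical axis) ± standard error for the 6 genes, corpus callosum minus cortex at the 3 ages (left) and adult minus P7 in each region (right). The regional differences of Gpnmb and Atp6v0d2 at P3 and P7 are between 2.53 and 4.40, and Mitf is above 0 in cortex and below 0 in corpus callosum from P7 to adult; the points of P7 share arrays between the panels.

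Genes that hold the factors at the lysosome included 3 called higher in P7 corpus callosum, beside 0.446% of all genes called higher and 0.00451% lower. The list of regulators was made of mTORC1, its Rag GTPases and Ragulator anchor, the folliculin complex, calcineurin and related genes, and 25 of its 27 genes were measured. Rragd, a Rag GTPase that presents these factors to mTORC1 and is itself a known target of them, had P7 log2 levels of 5.16, 5.38 and 4.85 in cortex and 6.71, 5.96 and 6.37 in corpus callosum. Fnip2, a partner of folliculin, was at 7.81, 7.47 and 7.62 in cortex and 9.12, 8.41 and 8.30 in corpus callosum. Rragc, the paralog of Rragd, was at 7.97, 7.86 and 7.95 in cortex and 8.89, 8.44 and 8.54 in corpus callosum. For these genes no cortex array reached the lowest corpus callosum array.

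The P7 regional differences were 1.22 ± 0.22 log2 units for Rragd (limma adjusted p = 0.012), 0.98 ± 0.17 for Fnip2 (0.00838) and 0.70 ± 0.14 for Rragc (0.031). On the P7 cortex and adult corpus callosum arrays Rragd lay under the median of the probe sets, so the size of its differences is uncertain. Rragc was also called at P3, at 0.78 ± 0.14 (adjusted p = 0.0161), as the 1 regulator, beside 0.352% of all genes called higher and 0.153% lower. The other 22 regulators were not called at P7, and the list's median difference was 0.10, against 0.00 for all genes. The count of 3 fell to 1 without any 1 of the 3 cortex arrays at P7 or without the first corpus callosum array. Rragd was lost without the first or the third cortex array (adjusted p = 0.0603 and 0.0983) and without the first corpus callosum array (0.134), and Fnip2 without the second cortex array (0.0751). Rragc kept its P7 call only when the array left out was the second of corpus callosum (adjusted p = 0.0316), and was otherwise between 0.0628 and 0.301. Its P3 call was lost without the first corpus callosum array (adjusted p = 0.0633) or any 1 cortex array (0.0531 to 0.0696).

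Between the regions, limma gave 7 of the 25 regulators an unadjusted p under 0.05 at P3, of which 1 was lower in corpus callosum. At P7 it gave this to 6, all higher, and the shares of all genes were 12.8% and 6.88%. In the adult 0 regulators were called between the regions (0 with an unadjusted p under 0.05 in limma, beside 8.51% of all genes). From P7 to adult in corpus callosum, 8 of the 25 fell and 1 rose, beside 10.7% and 6.56% of all genes. Those with the largest falls were Rragd at -1.33 ± 0.22 (adjusted p = 0.000259), Xpo1, the exportin that carries the factors out of the nucleus, at -1.03 ± 0.16 (0.000162), and Rragc at -1.01 ± 0.14 (4.94e-05). Rptor, the scaffold of mTORC1 that recruits its substrates, rose by 0.47 ± 0.12 (0.00976). In cortex 2 fell, Xpo1 at -1.05 ± 0.16 and Lamtor2 at -0.52 ± 0.14, and 2 rose, Lamtor4 at 0.47 ± 0.12 and Rptor at 0.42 ± 0.12, where Lamtor2 and Lamtor4 are parts of the Ragulator anchor. These cortex counts lie near the 6.15% of all genes called lower and the 4.05% called higher, and they fell to 1 or 2 genes in all without any 1 P7 array or without the second adult array. The list's median was -0.28 in corpus callosum and -0.04 in cortex, beside 0.05 and 0.03 for all genes. Lamtor2, Lamtor4 and Rptor in cortex and Rptor in corpus callosum each lost the call under at least 1 alternative (adjusted p up to 0.111, 0.0958, 0.138 and 0.0557).

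**Figure D3:**
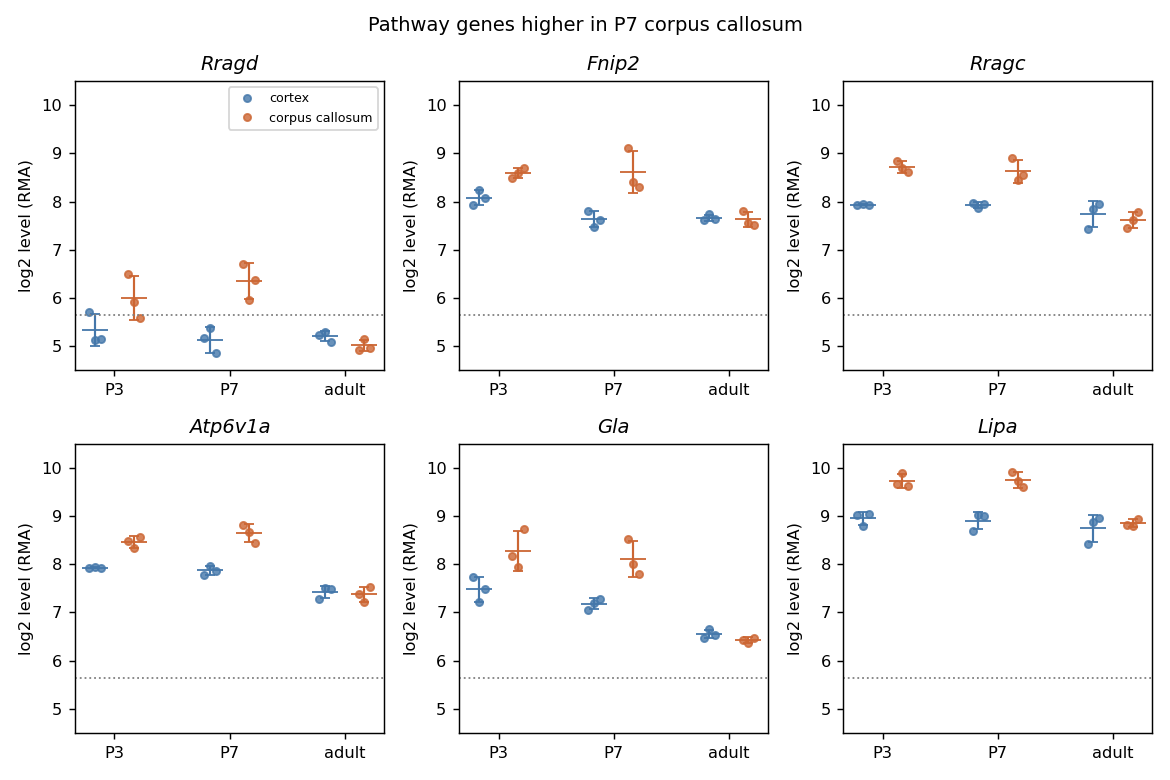
Log2 levels (vertical axis) by age (horizontal axis) of 6 genes called higher in P7 corpus callosum, the 3 regulators Rragd, Fnip2 and Rragc, the V-ATPase subunit Atp6v1a and the enzymes Gla and Lipa. Points are arrays of cortex (blue) and corpus callosum (orange), bars the mean ± SD of 3 arrays, and the dotted line the median of the probe set means. In each panel the P7 corpus callosum arrays lie above the P7 cortex arrays.

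Of the proton pump to which Atp6v0d2 belongs, 23 of 24 further subunit and accessory genes were measured. At P7, 1 of the 23 was called higher in corpus callosum and 0 lower, beside 0.446% and 0.00451% of all genes. Limma gave 6 of the 23 an unadjusted p under 0.05 there, all higher, beside 6.88% of all genes. Atp6v1a, the catalytic subunit, had P7 log2 levels of 7.78, 7.97 and 7.87 in cortex and 8.81, 8.67 and 8.45 in corpus callosum, a difference of 0.77 ± 0.12 (limma adjusted p = 0.00373). The call held without any 1 of the P7 arrays (adjusted p up to 0.0427) but not in a fit of the 6 P7 arrays alone (0.0632). Atp6v0d1, the widely expressed counterpart of Atp6v0d2, differed by 0.41 ± 0.20 at P7 (95% interval -0.0049 to 0.83, unadjusted p = 0.0525). The differences of 20 of the 23 were above 0, with a median of 0.15.

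At P3, 0 of the 23 pump genes were called (10 had an unadjusted p under 0.05 in limma, beside 12.8% of all genes, and 4 were called with an intensity trend or among brighter genes alone), with a median of 0.16. In the adult 0 were called (6 with an unadjusted p under 0.05, all lower in corpus callosum, beside 8.51% of all genes), with a median of -0.05. In corpus callosum 9 of the 23 fell from P7 to adult and 1 rose, beside 10.7% and 6.56% of all genes. Atp6v1a fell by 1.26 ± 0.12 (adjusted p = 7.78e-07), Atp6v0d1 by 1.08 ± 0.20 (0.000672) and Atp6v1b2 by 0.93 ± 0.13 (4.87e-05). Tcirg1, the a3 subunit known from osteoclasts, rose by 0.56 ± 0.11 (0.00116). In cortex, where 4.05% of all genes rose and 6.15% fell, Atp6v1c1 and Tcirg1 rose, by 0.51 ± 0.14 and 0.42 ± 0.11, and Atp6v1a fell by 0.45 ± 0.12, and each of these 3 lost its call under at least 1 alternative (adjusted p up to 0.0839, 0.081 and 0.111). Without the second or the third P7 cortex array 0 of the 3 calls were made, and without the first adult array 1.

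Of 25 lysosomal genes known as targets of the factors, 21 were measured. At P7, 3 of the 21 were called higher in corpus callosum and 0 lower, beside 0.446% and 0.00451% of all genes. Gla, the alpha-galactosidase, differed by 0.94 ± 0.19 log2 units (limma adjusted p = 0.0345), Lipa, the lysosomal acid lipase that frees cholesterol from its esters, by 0.84 ± 0.15 (0.00838), and Ctsb, the protease cathepsin B, by 0.54 ± 0.11 (0.0309). On the P7 arrays Lipa had log2 levels of 8.70, 9.02 and 8.99 in cortex and 9.92, 9.72 and 9.60 in corpus callosum, with no overlap. Lipa was also called at P3, by 0.77 ± 0.15 (adjusted p = 0.0229), as the 1 gene of the list, beside 0.352% of all genes called higher. There 3 were called with an intensity trend and 4 among brighter genes alone. The P7 calls depended on single arrays, and leaving out 1 P7 array gave between 0 and 2 called genes of the list. Lipa was lost without the first array of either region (adjusted p = 0.0906 without that of cortex and 0.0967 without that of corpus callosum), Gla without any but the third corpus callosum array (0.0708 to 0.326 otherwise), and Ctsb without any 1 array (0.057 to 0.23). At P3 Lipa was lost without the second corpus callosum array (0.0671) or the first or the second cortex array (0.0662 and 0.112).

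The differences of the lysosomal genes were above 0 in corpus callosum for 21 of 21 at P3 and 20 of 21 at P7, with medians of 0.24 and 0.23, against 0.01 and 0.00 for all genes. An unadjusted p under 0.05 was given by limma to 11 of the 21 at P3 and 7 at P7, all higher in corpus callosum. The shares of all genes were 12.8% and 6.88%. In the adult the differences were above 0 for 4 of 21, with a median of -0.07 and 0 called. There 0 had an unadjusted p under 0.05 in limma, beside 8.51% of all genes. From P7 to adult, 12 of the 21 fell and 1 rose in corpus callosum, beside 10.7% and 6.56% of all genes, and 4 fell in cortex, beside 6.15%. The 4 in cortex became 1 or 2 without any 1 P7 array or without the second adult array. In corpus callosum Gla fell by 1.69 ± 0.19 (adjusted p = 5.2e-06), Ctsb by 1.35 ± 0.11 (8.26e-08) and Lipa by 0.89 ± 0.15 (0.000241), and Sgsh, a sulphatase that degrades heparan sulphate, rose by 0.48 ± 0.16 (0.0451). In cortex Gla and Ctsb each fell by 0.63 and Lamp1, a protein of the lysosomal membrane, by 0.41 ± 0.10. Sgsh in corpus callosum and Gla and Lamp1 in cortex lost their calls under at least 1 alternative (adjusted p up to 0.163, 0.16 and 0.0687). The list's median change was -0.40 in corpus callosum and -0.10 in cortex.

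Of 18 autophagy genes of the same programme, all measured, 1 was called higher in P7 corpus callosum and 0 lower, beside 0.446% and 0.00451% of all genes. Hif1a, the hypoxia-inducible factor, differed by 0.69 ± 0.13 log2 units (limma adjusted p = 0.0187), and its call was lost without any 1 cortex array (0.0668 to 0.12) or the first corpus callosum array (0.162). In a fit of the 6 P7 arrays alone, none of Rragd, Fnip2, Rragc, Atp6v1a, Gla, Lipa, Ctsb and Hif1a was called (adjusted p from 0.0632 to 0.146). The list's median was 0.21 at P7, 0.23 at P3 with 0 called and -0.16 in the adult with 0 called. At an unadjusted p under 0.05 limma counted 8 of the 18 at P3, 4 at P7 and 2 in the adult. The shares of all genes were 12.8%, 6.88% and 8.51%. Those at P3 and P7 were higher in corpus callosum and the 2 in the adult lower. At P3, 3 were called with an intensity trend or among brighter genes alone, and 1 without the second or the third corpus callosum array. In corpus callosum 4 of the 18 fell from P7 to adult, beside 10.7% of all genes, among them Gabarap, which couples cargo to the growing autophagosome, by 0.98 ± 0.12. Vps33a, which tethers vesicles to lysosomes, and Hif1a each fell by 0.63. Hif1a was also called in the change of the regional difference from P7 to adult, at -0.96 ± 0.18 (adjusted p = 0.0459). In cortex 0 were called (4 with an unadjusted p under 0.05 in limma, beside 20.4% of all genes).

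**Figure D4:**
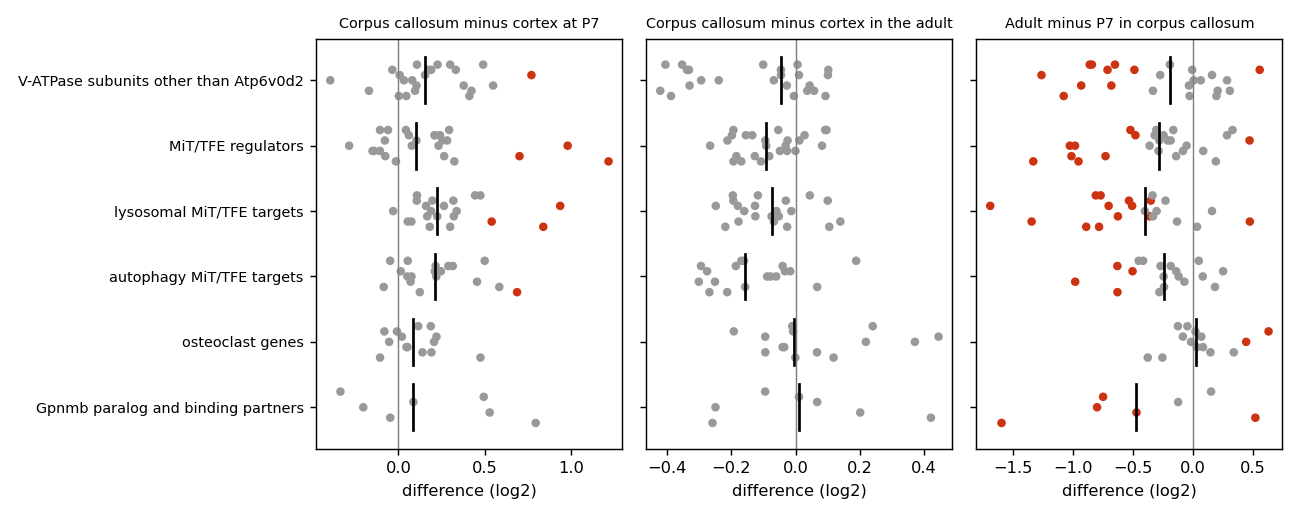
Difference in log2 level (horizontal axis) of each measured gene of 6 lists (rows), for corpus callosum minus cortex at P7 and in the adult and for adult minus P7 in corpus callosum. Red points are called at an adjusted p under 0.05, grey points are not, and black bars are list medians. At P7 the red points are 1 pump gene, 3 regulators, 3 lysosomal genes and 1 autophagy gene; in the adult no point is red. The outer panels share the P7 corpus callosum arrays.

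Atp6v0d2, Mitf, Tfe3 and Tfec are known from osteoclasts, and 14 other osteoclast genes were measured. None was called between the regions by limma at P3, P7 or in the adult. At an unadjusted p under 0.05 limma counted 2, 1 and 2 of the 14, beside 12.8%, 6.88% and 8.51% of all genes. At P7 their differences ran from -0.11 for Tnfrsf11a, the receptor RANK, to 0.48 for Mcoln3, a lysosomal cation channel (adjusted p = 0.312), with a median of 0.08. From P7 to adult Nfatc1, the main transcription factor of osteoclast formation, rose by 0.74 ± 0.14 in cortex (adjusted p = 0.0016) and by 0.63 ± 0.14 in corpus callosum (0.00402). Ctsk, the protease that degrades bone collagen, rose by 0.44 ± 0.14 in corpus callosum (0.0319). The group means of Ctsk lay between 4.65 and 5.30, under the median of the probe sets, so the size of this rise is uncertain. In cortex Src, a tyrosine kinase needed for bone resorption, rose by 0.58 ± 0.12 and Tnfrsf11a fell by 0.48 ± 0.13. Ctsk and Tnfrsf11a lost their calls under at least 1 alternative (adjusted p up to 0.161 and 0.079). The adult minus P7 differences of Nfatc1 were thus above 0 in both regions, and those of Gpnmb and Atp6v0d2 below 0.

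Of the paralog and the reported binding partners of Gpnmb, 7 of 8 were measured and 0 were called between the regions at any age. Unadjusted p-values under 0.05 were given by limma to 2 of the 7 at P3, 4 at P7 and 1 in the adult, beside 12.8%, 6.88% and 8.51% of all genes. In corpus callosum 4 of the 7 fell from P7 to adult and 1 rose, beside 10.7% and 6.56% of all genes. Sdc4, a heparan sulphate proteoglycan that binds Gpnmb, differed by 0.79 ± 0.28 at P7 (unadjusted p = 0.0109, not called) and fell from P7 to adult in corpus callosum by 1.60 ± 0.28 (adjusted p = 0.000432). The integrin chain Itgb1 fell by 0.80 ± 0.13 there and by 0.75 ± 0.13 in cortex. Cd44, a receptor for hyaluronan and a partner of Gpnmb, fell by 0.75 ± 0.20 in corpus callosum, and the fourth gene that fell there was Lgals3, a galectin, by 0.47 ± 0.15. In adult corpus callosum Cd44 had a mean of 5.19, under the median of the probe sets, so the size of its fall is uncertain. Pmel, the paralog of Gpnmb in melanosomes, rose there by 0.52 ± 0.13 (adjusted p = 0.00783). The 5 calls there became 3 without the first P7 array and 2 without the first adult array. Cd44 lost its call without either of these (adjusted p up to 0.0811), and Pmel without the first adult array (0.0535).

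The genes with profiles most like that of Gpnmb over the 18 arrays were ranked by the root mean square difference of log2 levels, each gene centred on its own mean. The nearest were Hpse, the heparan sulphate-degrading heparanase, at 0.43, Igf1, a growth factor, at 0.49, and Tnfsf18, a ligand of the TNF family, at 0.70. Itgax, the integrin CD11c, at 0.75, and the annexins Anxa2 and Anxa5, both at 0.77, came next. Atp6v0d2 took rank 3 among all genes, at 0.69, and the median gene was at 1.83. For Atp6v0d2, Gpnmb was the nearest of all genes. Among the genes not left out, Tnfsf18 at 0.78, Hpse at 0.79 and Itgax at 0.85 came next. Clec7a, the beta-glucan receptor dectin-1, at 0.96, Igf1 at 0.96 and Folr2, a folate receptor, at 1.03 followed.

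The factors stood farther away. Tfec ranked 32nd for likeness to Gpnmb (1.10) and 46th for Atp6v0d2 (1.49), and Mitf ranked 703rd (1.54) and 226th (1.71). Tfeb and Tfe3 lay near the median gene, at 1.82 and 1.87 from Gpnmb and 2.04 and 2.07 from Atp6v0d2, for which the median was 2.05. The measure depends on the size of a change as well as on its course, and all genes share the same 18 arrays and 6 groups, so these ranks are a description. Gpnmb and Atp6v0d2 were both selected for being higher in early corpus callosum, which by itself brings their profiles near each other.

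**Figure D5:**
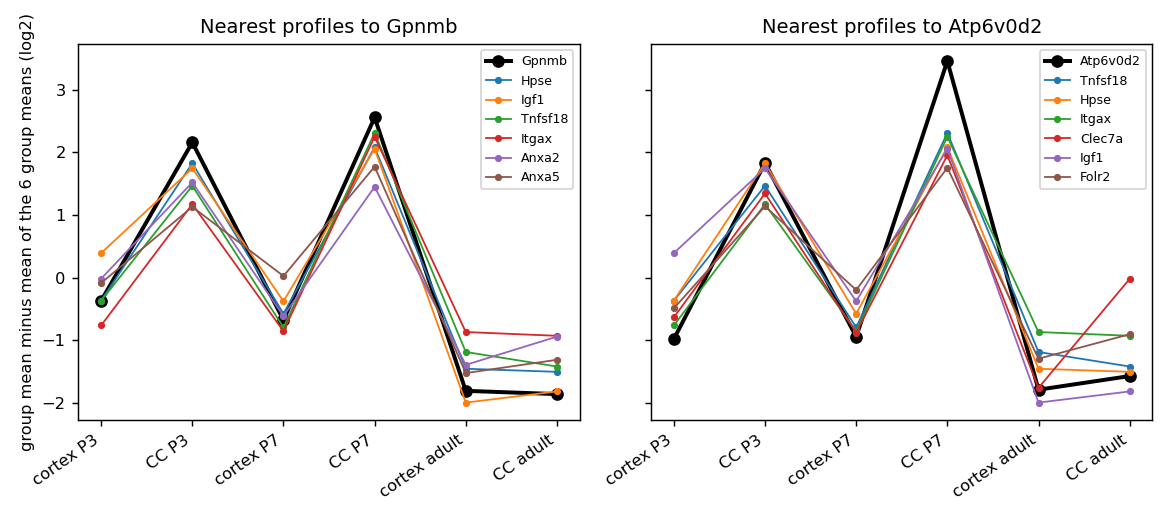
Group means of log2 level minus the mean of the 6 groups (vertical axis) in the 6 groups (horizontal axis; CC is corpus callosum), for Gpnmb (left, black) and Atp6v0d2 (right, black) with the 6 genes nearest to each. All lines peak in P3 and P7 corpus callosum, and Clec7a ends higher in adult corpus callosum than in adult cortex.

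Markers of microglia and of other cells were read on the same arrays. All 8 measured of 9 microglia markers were above the median of the probe sets in every group, with array means between 10.33 and 11.25 log2 units. At P7 0 of the 8 had a difference above 0 between corpus callosum and cortex (median -0.19, 0 called). An unadjusted p under 0.05 was given by limma to 2 of the 8, beside 6.88% of all genes. Between P7 and adult 4 of the 8 rose in cortex and 6 in corpus callosum, beside 4.05% and 6.56% of all genes. Tmem119 rose by 1.03 ± 0.22 and 1.56 ± 0.22. The 8 melanocyte markers, for cells in which Mitf, Gpnmb and Pmel are abundant, had array means between 5.39 and 5.63, Tyr was lowest with group means between 4.52 and 4.99, and 0 were called between the regions (0 with an unadjusted p under 0.05 in limma at P3 and P7, 1 in the adult). Of 10 markers of border macrophages, 8 had a difference above 0 at P3 and 6 at P7, with list medians of 0.35 and 0.02. Of the 10, 2 were called higher in corpus callosum at P3, Folr2 by 1.63 ± 0.22 and Ms4a7 by 1.53 ± 0.29, and 1 at P7, Folr2 by 1.95 ± 0.22. Of all genes, 0.352% were called higher at P3 and 0.446% at P7. An unadjusted p under 0.05 was given by limma to 5 of the 10 at P3, 4 higher and 1 lower. At P7 it was given to 3, all higher, and the shares of all genes were 12.8% and 6.88%. Mrc1, the mannose receptor, had differences of -0.72 ± 0.27 at P3, -0.48 ± 0.27 at P7 and -0.69 ± 0.27 in the adult, none called. Averaged over the 10, the cortex arrays lay between 6.19 and 6.67 at P3 and between 6.52 and 6.83 at P7. The corpus callosum arrays lay between 6.54 and 7.25 at P3 and between 6.76 and 6.97 at P7, and the adult arrays of both regions between 5.54 and 5.72. From P7 to adult 4 of the 10 fell in cortex and 6 in corpus callosum, beside 6.15% and 10.7% of all genes. Mrc1 fell by 4.23 ± 0.27 and 4.44 ± 0.27. The part of the microglia and border macrophage markers in the levels of Gpnmb, Atp6v0d2, Mitf and Tfec was not tested.

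Single arrays also differed in other markers. The first P7 corpus callosum array, the highest of its group for Gpnmb, Atp6v0d2, Mitf and Tfec, had a mean of 5.89 over 9 neutrophil markers, against 5.12 and 5.11 on the other two. It also had the highest means of its group for border macrophage (6.97, against 6.80 and 6.76) and monocyte (6.64, against 6.58 and 6.55) markers. Its mean for microglia markers was the lowest of the group (10.33, against 10.54 and 10.54). Without it the P7 regional differences were 2.82 for Gpnmb, 4.04 for Atp6v0d2 and 1.01 for Mitf. The third P3 corpus callosum array, the lowest for Atp6v0d2, had the highest means of its group for neutrophil (6.49), monocyte (6.76) and border macrophage (7.25) markers. At P3 1 of 7 monocyte markers, Lyz2, was called higher in corpus callosum, by 0.90 ± 0.19, beside 0.352% of all genes. Ly6c2 of the same list was at -0.68 ± 0.23 (not called). At P7 Lyz2 was at 0.76 ± 0.19 and Plac8 at -0.70 ± 0.18, neither called. Limma gave 4 of the 7 monocyte markers an unadjusted p under 0.05 at P3, 3 higher and 1 lower in corpus callosum. At P7 it gave this to 5, 3 higher and 2 lower. The shares of all genes were 12.8% and 6.88%. At P3 2 of 10 neuron markers were called lower, Gap43 by 1.27 ± 0.18 and Meg3 by 1.32 ± 0.21, beside 0.153% of all genes. No marker of oligodendrocytes and their precursors, astrocytes or vessels was called between the regions at any age. Mbp of the oligodendrocyte list was higher in P7 corpus callosum by 0.50 ± 0.11 (limma adjusted p = 0.0501), just short of a call. At P7, 3 of the 10 in that list had an unadjusted p under 0.05 in limma, beside 6.88% of all genes. Of these, 2 were higher and 1 lower.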

How the data were processed

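Expression was measured on 18 Affymetrix arrays. The values used were the deposited log2 levels of probe sets, which the authors made with RMA, per the submitters' processing notes. Its settings, the annotation build and the log base are not stated there, and base 2 was assumed from values between 0.87 and 13.8. RMA makes array distributions alike and compresses large differences. Array medians lay between 5.58 and 5.74.

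Of 41345 probe sets, 23521 had 1 gene symbol, 1814 several and 16010 none in GEO's platform annotation. A gene was represented by its brightest probe set with 1 symbol, and each of the 6 genes had only 1. One limma 3.58.1 model (R 4.3.3) with 6 group means and 12 residual degrees of freedom gave two-sided tests, Benjamini-Hochberg adjusted over all 22180 genes of a comparison, and was tested on simulated data. Every adjusted p is limma's. The number of arrays limits the precision.

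The genes, the lists and the markers were chosen with earlier results of these data known. Besides the 6 genes, the rule named up to 3 called genes per direction for each list and comparison of regions or of adult with P7, and the 6 nearest profiles. Atp6v0d1 and Sdc4 between the regions, Mcoln3, Lgals3 and the markers were named after their values were seen. Alternatives were a second quantile normalization, an intensity trend, only genes above the median of all probe sets, the mean of all probe sets of a gene, a replicate block, only the arrays compared, each array left out, and, added after the data were seen, each array set fitted alone.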

Additional observations from a re-analysis of the deposited data

How the results depend on the processing

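No result changed direction in a called value under any alternative run. Of the 4 factors, 1 was called between the regions at P3 with an intensity trend and 1 when only genes above the median of all probe sets were tested, in both cases Mitf (adjusted p = 0.0329 and 0.0249). At P7, 0 were called when only the arrays compared were fitted (Mitf, 0.0884). For adult minus P7, leaving out 1 array gave 1 to 2 factors in cortex and 1 to 2 in corpus callosum, and in corpus callosum 1 was called after a second quantile normalization and 1 with only the arrays compared. For the adult regional difference minus that at P7, 1 factor, Mitf, was called with an intensity trend (0.026) and 1 among genes above the median (0.0185), and leaving out 1 array gave 0 to 1 (Mitf without the third P7 corpus callosum array, 0.0144). The adult regional difference ran from -0.18 to 0.09 for Gpnmb and from 0.01 to 0.36 for Atp6v0d2, never called. The regional difference of Gpnmb ran from 2.40 to 2.68 at P3 and from 2.78 to 3.63 at P7, and that of Atp6v0d2 from 2.28 to 3.54 and from 4.04 to 4.64. Atp6v0d2, Rragd, Ctsk and Cd44 have no value among genes above the median.

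Whether replicate numbers pair the samples was not settled, and the main model used no pairing. Same-numbered arrays of the regions correlated in their deviations by 0.02 to 0.30, all 9 pairs above 0 and 5 of them under 0.1. Arrays with different numbers correlated by -0.31 to 0.20. With the replicate block the count of calls between the regions at P7 went from 100 to 103, that at P3 from 112 to 127, those of P7 minus P3 from 196 to 270 in cortex and from 164 to 210 in corpus callosum, and the adjusted p of the regional difference of Mitf at P7 was 0.00581. The second normalization shifted the median of all genes by at most 0.04. Levels of Atp6v0d2 near the bottom of the array limit the size of its folds.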
